A study of Mus musculus with 36 samples.

Results

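The genes described here encode the proteasome, the protease that degrades ubiquitin-tagged proteins. They were chosen by name, as the protein-coding genes of the GENCODE M21 annotation (mouse build GRCm38, also called mm10) whose symbol begins with Psma, Psmb, Psmc, Psmd, Psme, Psmf or Psmg. The rule found 50 genes among 22028 protein-coding genes. It used no measured value. 4 further symbol matches were pseudogenes and were left out. 1 of the 50, Psmc3ip, carries the name because its product binds a proteasome ATPase, but it encodes a factor of meiotic recombination and is no subunit.

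The counts came from RNA sequencing of 36 libraries of mouse brown pre-adipocytes, the precursor cells of brown fat. All cells were Rxra-/-, since CRISPR/Cas9 had disrupted the gene for the retinoid X receptor alpha in a clonal cell line, and all carried a retroviral vector that brought back either wild-type mouse Rxra (RxraWT) or Rxra with serine 22 changed to alanine (RxraSA). Clones 48 and 66 of the knockout were taken at days 0, 2 and 6 after differentiation was induced, and 3 replicate libraries stood behind every combination of clone, genotype and time. By the methods of the study, cells reached confluence (day 0) in medium with insulin and triiodothyronine. Dexamethasone, isobutylmethylxanthine and indomethacin were present as well until day 2, and were left out of the medium afterwards. No library came from cells without a knockout, and no untreated time course was analysed here. Day, induction and the presence of these added drugs thus cannot be told apart. Each clone made up 1 library pool, so that clone and pool cannot be told apart either.

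The 26S proteasome joins a barrel-shaped 20S core to a 19S regulatory particle. The core consists of stacked rings of alpha and beta subunits, and Psmb5, Psmb6 and Psmb7 encode its peptidases. In immune cells, and in other cells exposed to interferon, these peptidases can be replaced by Psmb8, Psmb9 and Psmb10 to form the immunoproteasome, which is known for making peptides for major histocompatibility complex (MHC) class I. The 19S particle recognises ubiquitin chains and unfolds substrates with a ring of ATPases. Other activators can take its place, namely PA28 alpha and beta, which are also induced by interferon gamma, PA28 gamma and PA200. Constitutive subunit genes are known targets of the transcription factor NFE2L1, which acts through antioxidant response elements in their promoters. In brown fat this control is known to maintain proteasome activity under cold exposure.

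Promoter sequences were searched for such elements, and the stretches of 2 constitutive peptidase genes and 1 immunoproteasome gene are shown because the expression of these genes moved in opposite directions at day 2. No stretch was available for Psmb7, and for Psmb8 and Psmb9 all 250 bases before the start lay in annotated exons. The stretches are thus a partial set, and a link between the element and the direction of expression was not tested. All are RefSeq sequences of build GRCm38.p6, written 5′ to 3′ on the strand of the gene, with matches to the core of the antioxidant response element (TGACNNNGC) in capitals. The Psmb5 stretch is chr14:54618023-54618142 on the minus strand, the Psmb6 stretch is chr11:70525237-70525356 on the plus strand, and the Psmb10 stretch is chr8:105938445-105938564 on the minus strand.
Psmb5: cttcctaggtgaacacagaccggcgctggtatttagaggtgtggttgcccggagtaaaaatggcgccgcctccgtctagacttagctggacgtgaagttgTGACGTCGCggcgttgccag
Psmb6: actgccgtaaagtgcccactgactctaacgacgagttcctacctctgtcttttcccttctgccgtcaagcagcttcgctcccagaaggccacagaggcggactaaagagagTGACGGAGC
Psmb10: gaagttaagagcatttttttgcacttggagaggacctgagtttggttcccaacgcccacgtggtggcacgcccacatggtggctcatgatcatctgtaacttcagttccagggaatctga

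In the 250 bases before the start site, on both strands, the antioxidant response element core was found in 5 of 42 members with a RefSeq promoter (11.9%), which were Psmb5, Psmb6, Psmc6, Psmd9 and Psmd12. It was found in 11.5% of 27025 genes. The core of the interferon-stimulated response element (GAAA, any 2 bases and GAAA again) was found in 3 of 42 members (7.14%), which were Psmb3, Psmd4 and Psmd9, against 3.46% of all genes. The CCAAT box (CCAAT) was found in 15 of 42 members (35.7%) against 37.5% of all genes. No matches of different motifs overlapped. For the antioxidant response element and the CCAAT box, the share among members was thus close to that among all genes, and the interferon element rested on 3 genes.

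Total counts per library lay between 11351078 and 24349263. The members together took 0.521% to 0.762% of the total at day 0, 0.819% to 1.05% at day 2 and 0.514% to 0.726% at day 6, and the range at day 2 lay above both others. 48 members passed the filter on low counts among 16723 genes tested. Psma8, a testis subunit, had 0 counts in all 36 libraries, and Psmb11, a thymus subunit, had 0 to 6. The cells carried the markers of differentiating fat cells: Adipoq, the gene for adiponectin, went from a median of 0.829 RPKM (reads per kilobase of exon, scaled to library size by the trimmed mean of M values) at day 0 to 1524 RPKM at day 6. Of the markers that set brown fat apart, Ucp1, the uncoupling protein of brown fat, reached at most 0.188 RPKM and Dio2, the deiodinase that activates thyroid hormone, at most 0.224 RPKM in any library. Cidea, a lipid droplet protein, went from a median of 0.00 RPKM at day 0 to 0.465 RPKM (up to 1.49) at day 6, and Ppargc1a, a coactivator of mitochondrial genes, from 2.06 to 3.47 RPKM. Rxra itself was counted 1851 to 4032 times per library at day 0, 6630 to 11489 times at day 2 and 3311 to 6118 times at day 6, with overlapping ranges in RxraWT and RxraSA libraries. Gene counts cannot separate the introduced transcripts from the edited one.

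Most of the constitutive proteasome rose at day 2 and fell again by day 6. From day 0 to day 2, 39 of 48 members rose and 5 fell at an adjusted p under 0.05 (edgeR's quasi-likelihood test, Benjamini-Hochberg), and the median change of the 48 was 0.77 on the log2 scale. Of all genes tested, 35.8% rose and 37.5% fell, 73.3% in all, with a median of -0.02. From day 2 to day 6, 38 members fell and 7 rose, with a median of -0.68, against 30.1% and 31.9% of all genes and a median of 0.01. 36 members, among them Psmc3ip, which is no subunit, rose first and then fell. The share of all genes with both calls was not counted. 24 of the 36 did not pass the test between day 0 and day 6, which does not show that their levels were equal. Across the 36, the median loss by day 6 was 99.5% of the log2 rise. Since the 36 were picked by their rise and fall, some loss is part of their selection. Since 62.0% or more of all genes changed between any 2 days, a call alone does not set a member apart from the table.

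**Figure D1:**
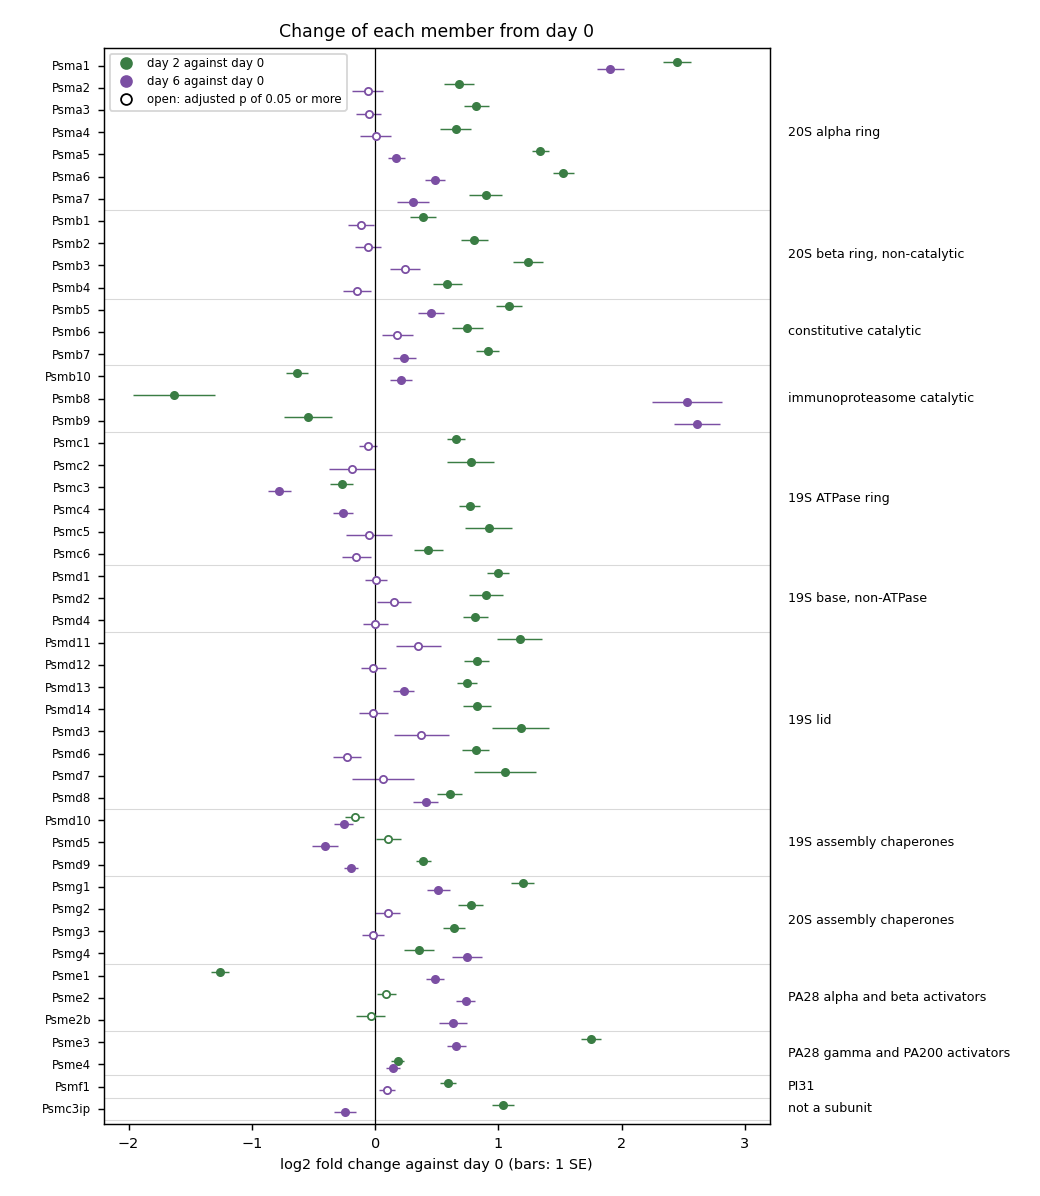
Log2 fold change of each of the 48 tested members from day 0 to day 2 (green) and from day 0 to day 6 (purple), with 1 standard error, grouped by role; filled points have an adjusted p under 0.05. Most green points lie near the median of 0.77 and most purple points near 0, while Psmb8, Psmb9, Psmb10 and Psme1 lie below 0 at day 2 and above it at day 6.

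In the separate libraries this was a shift of whole groups for many members. For 26 of 48 members, all 6 day 2 libraries lay above all 6 day 0 libraries in both clones, which held for 17.0% of all genes tested. For 3 members (Psmb10, Psme1 and Psmb8) all day 2 libraries lay below in both clones, against 18.1% of all genes. From day 2 to day 6, 24 members lay wholly below, against 10.8%, and 5 wholly above, against 12.8%.

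All 14 constitutive subunits of the 20S core rose at day 2, with a median change of 0.86, and all 14 fell from day 2 to day 6, with a median of -0.71. Of all genes tested, 35.8% rose at day 2 and 30.1% fell from day 2 to day 6. Their levels differed widely between genes. At day 0 the lowest median was 18.7 RPKM for Psma3 and the highest 186 RPKM for Psmb4, and at day 2 these extremes were 32.4 RPKM for Psma3 and 273 RPKM for Psma6. The lengths used are those of all annotated exons, which need not be those of the transcripts made.

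Among the 7 alpha subunits, which form the outer rings and the gate of the core, Psma1 stood apart. Its level was 32.2 to 56.7 RPKM over the 12 libraries of day 0, 164 to 291 RPKM at day 2 and 122 to 216 RPKM at day 6. Day 0 overlapped with neither later day. It changed on the log2 scale by 2.45 ± 0.11 (SE) at day 2 and still 1.91 ± 0.11 at day 6, the highest at day 2 of all members and the highest at day 6 of all but the immunoproteasome subunits Psmb8 and Psmb9. Psma6 followed with 1.53 ± 0.08 at day 2 and 0.49 ± 0.08 at day 6, and Psma5 with 1.34 ± 0.07 and 0.17 ± 0.07. The day 6 call of Psma5 was lost by library size alone, where the value was -0.013 (adjusted p = 0.88), and without replicate 1 of clone 48 (adjusted p = 0.18) or of clone 66 (adjusted p = 0.12). Psma4 had the smallest rise of the alpha ring at day 2, with 0.65 ± 0.12. At day 6 it stood at 0.00 ± 0.12 and Psma2 at -0.06 ± 0.12, neither of which passed the test.

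The 4 beta subunits without a catalytic site rose at day 2 and had day 6 values that did not pass the test against day 0. Psmb3 had the largest rise, with 1.24 ± 0.12 at day 2 and 0.24 ± 0.12 at day 6, and Psmb1 the smallest, with 0.39 ± 0.10 and -0.12 ± 0.10. By library size alone the rise of Psmb1 was 0.13 and was not called (adjusted p = 0.28). Psmb4 had the lowest value at day 6, with -0.15 ± 0.11.

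The 3 constitutive peptidases rose together at day 2. Psmb5 (chr14:54614119-54618022), the chymotrypsin-like subunit, lay between 58.6 and 83.7 RPKM (median 73.6) in clone 48 at day 0, between 136 and 229 RPKM (median 144) at day 2 and between 88.8 and 118 RPKM (median 109) at day 6. Clone 66 lay between 64.01 and 105 RPKM (median 86.6), between 150.0 and 192 RPKM (median 158) and between 84.4 and 138 RPKM (median 108). Every day 2 library of a clone was thus higher than every day 0 library, and in clone 48 day 6 lay between both other days without overlap.
Its log2 change was 1.09 ± 0.11 at day 2 (adjusted p = 3.4e-11) and 0.45 ± 0.11 at day 6 (adjusted p = 0.00030).

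Psmb6 (chr11:70525367-70527858), the caspase-like subunit, lay between 82.1 and 139 RPKM (median 97.8) in clone 48 at day 0, between 139 and 247 RPKM (median 190) at day 2 and between 92.0 and 166 RPKM (median 125) at day 6. The libraries of clone 66 lay between 97.6 and 154 RPKM (median 128), between 155 and 228 RPKM (median 201.4) and between 102 and 201 RPKM (median 115). Day 2 was higher than day 0 without overlap in both clones, though only just, and day 6 overlapped with both other days. Its log2 change was 0.75 ± 0.13 at day 2 (adjusted p = 2.6e-06) and 0.18 ± 0.13 at day 6 (adjusted p = 0.20).

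Psmb7 (chr2:38588036-38644087), the trypsin-like subunit, lay between 37.1 and 52.7 RPKM (median 46.9) in clone 48 at day 0, between 70.1 and 111 RPKM (median 88.2) at day 2 and between 46.0 and 68.3 RPKM (median 60.2) at day 6. For clone 66 the values lay between 37.2 and 51.2 RPKM (median 46.2), between 68.5 and 94.8 RPKM (median 87.4) and between 40.7 and 64.4 RPKM (median 46.5). All day 2 libraries lay above all others of their clone. Its log2 change was 0.91 ± 0.09 at day 2 (adjusted p = 8.7e-11) and 0.24 ± 0.09 at day 6 (adjusted p = 0.024). The call at day 6 was lost with 3 of the 6 omissions of a replicate, where adjusted p lay between 0.069 and 0.18, and with scaling by library size alone (adjusted p = 0.63).

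The immunoproteasome peptidases moved the other way. Psmb8 (chr17:34197721-34201454), which replaces Psmb5, lay between 0.599 and 1.71 RPKM (median 0.803) in clone 48 at day 0, between 0.165 and 0.572 RPKM (median 0.402) at day 2 and between 2.37 and 4.11 RPKM (median 2.79) at day 6. Values in clone 66 lay between 0.170 and 0.497 RPKM (median 0.343), between 0.0304 and 0.116 RPKM (median 0.0493) and between 2.37 and 4.97 RPKM (median 3.195). In both clones the days followed each other without overlap, with day 2 lowest and day 6 highest. These levels rested on few reads: clone 66 had 2 to 7 counts per library at day 2, 14 to 33 at day 0 and 149 to 298 at day 6. On the log2 scale the change was -1.63 ± 0.33 at day 2 (adjusted p = 4.5e-05) and 2.53 ± 0.29 at day 6 (adjusted p = 1.1e-09).

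Psmb9 (chr17:34181987-34187764), which replaces Psmb6, lay between 0.626 and 1.88 RPKM (median 1.00) in clone 48 at day 0, between 0.745 and 1.19 RPKM (median 0.982) at day 2 and between 5.20 and 7.30 RPKM (median 6.66) at day 6. In clone 66 it lay between 0.410 and 0.731 RPKM (median 0.497), between 0.126 and 0.352 RPKM (median 0.208) and between 2.23 and 4.81 RPKM (median 2.87). Day 6 was higher than both other days without overlap, while day 2 was lower than day 0 without overlap in clone 66 and overlapped with it in clone 48. The log2 change was -0.55 ± 0.20 at day 2 (adjusted p = 0.013) and 2.61 ± 0.19 at day 6 (adjusted p = 1.3e-14). Without replicate 2 or replicate 3 of clone 66, the day 2 call was lost (adjusted p = 0.095 and 0.064). The span of Psmb9 overlaps that of Tap1 on the opposite strand, and counting ignored the strand. Reads from any exonic bases that both share cannot be assigned to either gene. The spans of Psmb7, Psmb8, Psmb10, Psme1 and Psme4 also overlap genes on the opposite strand (Nek6, Gm20496, Gm16156, Emc9 and Gm12103, among others).

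Psmb10 (chr8:105935735-105938444), which replaces Psmb7, was far more abundant than the others. It lay between 21.4 and 37.1 RPKM (median 22.5) in clone 48 at day 0, between 14.3 and 21.2 RPKM (median 17.2) at day 2 and between 24.0 and 31.9 RPKM (median 27.8) at day 6. Clone 66 lay between 30.0 and 37.7 RPKM (median 31.2), between 17.2 and 20.9 RPKM (median 19.8) and between 33.1 and 50.9 RPKM (median 36.2). Day 2 was the lowest day in both clones without overlap. It changed on the log2 scale by -0.63 ± 0.09 at day 2 (adjusted p = 1.6e-07) and 0.21 ± 0.09 at day 6 (adjusted p = 0.041). The call at day 6 was lost under 6 alternatives, with adjusted p between 0.058 and 0.84, while that at day 2 held under all 15.

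**Figure D2:**
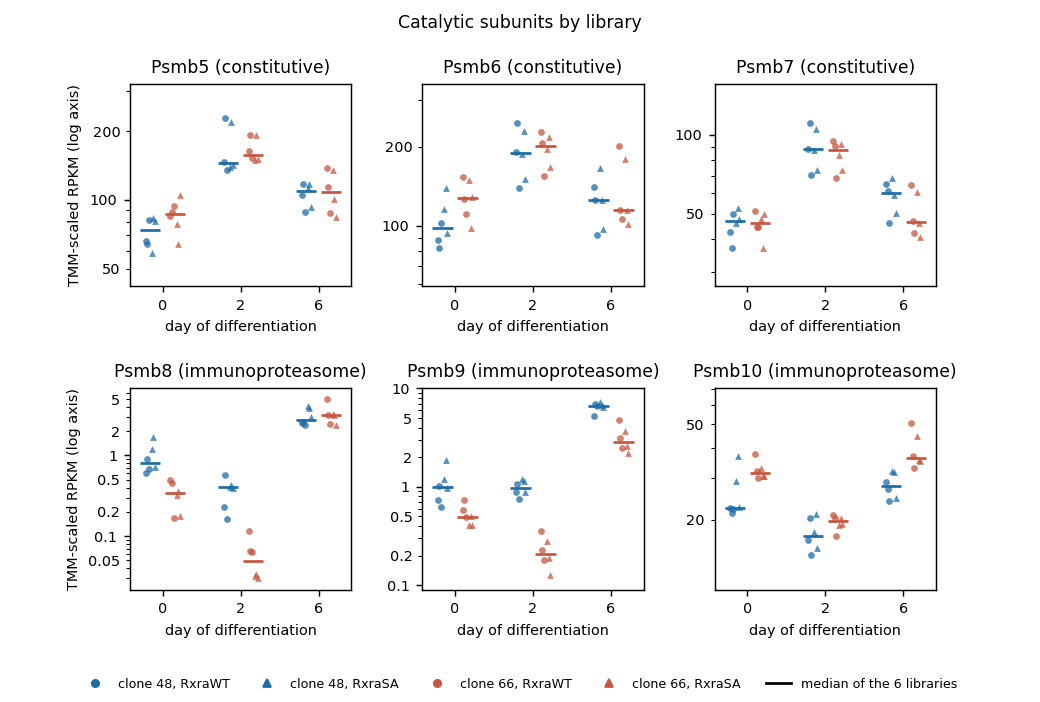
TMM-scaled RPKM (log axis) of the 3 constitutive and the 3 immunoproteasome peptidase genes in each library by day, with clones in colour, genotypes by symbol and lines at the medians of the 6 libraries of a clone and day. The medians of the upper genes are highest at day 2 and those of the lower genes are lowest at day 2, where Psmb9 in clone 48 overlaps with day 0.

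The contrast between the forms was tested on the ratio of each immunoproteasome gene to the constitutive gene it replaces, in counts per exon length. An exact two-sided permutation test was run within each clone (6 libraries against 6, 18 tests, smallest p possible 0.0022). It exchanged the libraries freely, although same-numbered RxraWT and RxraSA libraries of a day deviated together across genes. These p-values thus treat paired libraries as independent and may be too small. The ratio of Psmb8 to Psmb5 in clone 48 had a median of 1.17% before induction (day 0), 0.228% on day 2 and 2.95% on day 6. In clone 66 the medians were 0.473%, 0.0325% and 2.82%. The ratio fell 5.96-fold in clone 48 and 10.3-fold in clone 66 from day 0 to day 2, and stood 2.26-fold and 7.90-fold above day 0 at day 6 (exact permutation, adjusted p = 0.0026 for each). With 5 counts in place of 0.5 added to each value, the log2 difference of clone 66 from day 0 to day 2 shrank from -3.36 to -2.44 and kept its adjusted p.

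The ratio of Psmb9 to Psmb6 had medians of 1.05%, 0.525% and 5.47% in clone 48 and of 0.418%, 0.117% and 2.31% in clone 66. It fell 1.88-fold in clone 48 (exact permutation, adjusted p = 0.0049) and 3.58-fold in clone 66 (exact permutation, adjusted p = 0.0026) at day 2, and was 5.38-fold and 5.66-fold above day 0 at day 6 (exact permutation, adjusted p = 0.0026 for both). The fall in clone 48 was lost without replicate 2 (exact permutation, adjusted p = 0.061). The ratio of Psmb10 to Psmb7 had medians of 55.1%, 20.2% and 48.0% in clone 48 and of 70.4%, 22.5% and 78.6% in clone 66. It fell 2.79-fold and 3.02-fold at day 2 (exact permutation, adjusted p = 0.0026 for both). At day 6 it differed from day 0 by -0.20 on the log2 scale in clone 48 (exact permutation, adjusted p = 0.12) and by 0.16 in clone 66 (exact permutation, adjusted p = 0.039). The latter call was lost with the replicate numbers as pairs (exact permutation, adjusted p = 0.099) and without any 1 of the 3 replicates of clone 66. With pairs, or with a replicate left out, fewer permutations exist and the smallest possible p is higher. A call lost in these settings need not mean a smaller difference. In every library the 3 ratios were under 100%, with Psmb8 and Psmb9 at most at 3.64% and 7.16% of their constitutive partners. These levels depend on the annotated exon lengths, such as 3381 bases for Psmb8 and 899 for Psmb5, which need not be those of the transcripts made. The lengths cancel in the changes between days.

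**Figure D3:**
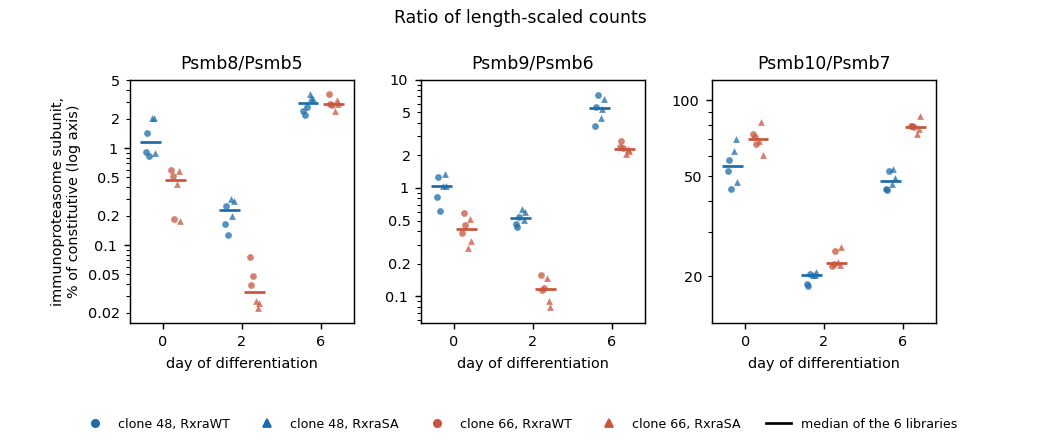
Ratio of each immunoproteasome gene to the constitutive gene it replaces, in percent of length-scaled counts (log axis), in each library by day. All 3 ratios are lowest at day 2 in both clones, and those of Psmb8 and Psmb9 are highest at day 6.

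Markers of immune cells were looked at beside these values, since immune cells carry immunoproteasomes. Of 7 markers, 6 stayed under 1 RPKM in every library, and Ptprc, which encodes the pan-leukocyte antigen CD45, and Cd3e, of T cells, were at or near 0. The seventh, Cd68, a lysosomal protein of macrophages that other cells also make, changed by -0.87 ± 0.10 at day 2 and 0.27 ± 0.10 at day 6. The summed level of the 7 markers was 3.57 to 8.57 RPKM at day 0, 1.99 to 4.50 RPKM at day 2 and 4.15 to 9.04 RPKM at day 6 over both clones, and almost all of it was Cd68. Of 3 endothelial markers, none reached 1 RPKM in any library. In bulk RNA, fewer cells that express a gene and less RNA per cell cannot be told apart.

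The activators also differed from each other in direction. Psme1 (chr14:55578123-55581529), which encodes PA28 alpha, lay between 23.2 and 36.1 RPKM (median 25.7) in clone 48 at day 0, between 9.30 and 13.2 RPKM (median 12.5) at day 2 and between 35.8 and 43.1 RPKM (median 38.0) at day 6. The libraries of clone 66 lay between 29.9 and 39.4 RPKM (median 35.2), between 12.8 and 15.6 RPKM (median 14.2) and between 42.8 and 61.5 RPKM (median 43.9). Day 2 lay wholly below both other days. On the log2 scale the change was -1.26 ± 0.07 at day 2 (adjusted p = 7.1e-17) and 0.49 ± 0.07 at day 6 (adjusted p = 3.9e-07).

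Psme2 (chr14:55587441-55591113), which encodes the partner PA28 beta, did not share the dip. It lay between 39.7 and 62.0 RPKM (median 45.8) in clone 48 at day 0, between 49.4 and 68.4 RPKM (median 54.6) at day 2 and between 72.3 and 92.7 RPKM (median 80.2) at day 6. For clone 66 the values lay between 48.3 and 58.7 RPKM (median 55.8), between 46.1 and 57.0 RPKM (median 51.7) and between 78.3 and 104 RPKM (median 87.8). Days 0 and 2 overlapped and day 6 lay above both. The log2 change was 0.09 ± 0.08 at day 2 (adjusted p = 0.30) and 0.73 ± 0.08 at day 6 (adjusted p = 3.5e-10). Psme2b, a copy of Psme2 on chromosome 11 with 23 to 102 counts per library, gave -0.04 ± 0.12 and 0.63 ± 0.11, but reads of near-identical copies may have been split or dropped.

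Psme3 (chr11:101316213-101323537), which encodes the nuclear activator PA28 gamma, had the second largest rise of all members at day 2. It lay between 14.2 and 21.6 RPKM (median 16.1) in clone 48 at day 0, between 56.2 and 68.6 RPKM (median 64.02) at day 2 and between 25.2 and 35.8 RPKM (median 29.8) at day 6. Values in clone 66 lay between 18.8 and 27.4 RPKM (median 21.9), between 65.2 and 75.1 RPKM (median 72.6) and between 28.3 and 37.7 RPKM (median 32.9). The 3 days did not overlap in either clone. It changed on the log2 scale by 1.75 ± 0.08 at day 2 (adjusted p = 5.5e-20) and 0.66 ± 0.08 at day 6 (adjusted p = 3.7e-09).

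Psme4 (chr11:30771726-30880361), which encodes PA200, was nearly level. It lay between 20.8 and 25.7 RPKM (median 23.4) in clone 48 at day 0, between 21.7 and 27.2 RPKM (median 24.9) at day 2 and between 24.7 and 27.6 RPKM (median 25.8) at day 6. In clone 66 it lay between 24.4 and 31.8 RPKM (median 26.7), between 31.2 and 35.3 RPKM (median 33.3) and between 27.9 and 33.2 RPKM (median 29.5). The log2 changes of 0.18 ± 0.06 at day 2 and 0.14 ± 0.06 at day 6 passed the test but took the opposite sign, at -0.077 and -0.044, when counts were scaled by library size alone.

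**Figure D4:**
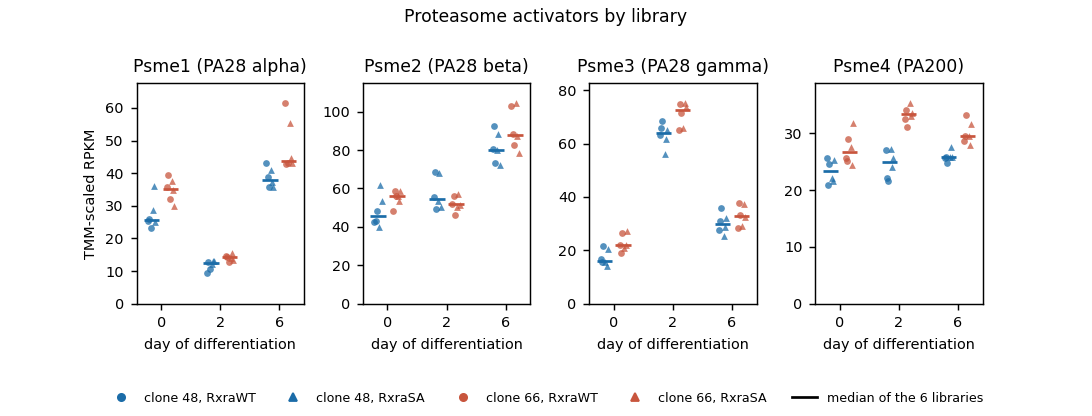
TMM-scaled RPKM of the genes for the activators PA28 alpha, PA28 beta, PA28 gamma and PA200 in each library by day, on axes from 0, with lines at the medians of the 6 libraries of a clone and day. Psme1 is lowest and Psme3 highest at day 2, Psme2 is highest at day 6, and Psme4 spans only 20.8 to 35.3 RPKM.

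Of the 17 genes of the 19S particle at day 2, 16 rose and 1 fell, with a median change of 0.81, and from day 2 to day 6 16 fell, with a median of -0.82. Among all genes, 35.8% rose and 37.5% fell at day 2, and 30.1% fell from day 2 to day 6. In the ATPase ring, Psmc5 had the largest rise, with 0.92 ± 0.19, and Psmc6 the smallest, with 0.43 ± 0.12 (0.17 by library size alone, adjusted p = 0.21). Day 2 libraries overlapped with those of day 0 for Psmc5 in clone 66, and for Psmc2 and Psmc6 in both clones. The 1 gene that fell was Psmc3, another ATPase of the ring, at 70.3 to 103 RPKM at day 0, 60.7 to 88.5 RPKM at day 2 and 39.9 to 71.1 RPKM at day 6. The ranges overlapped between neighbouring days and drifted downward. Its log2 change was -0.27 ± 0.09 at day 2 (adjusted p = 0.011) and -0.78 ± 0.10 at day 6 (adjusted p = 6.9e-09). The fall at day 2 was lost without replicate 3 of clone 66 (adjusted p = 0.056).

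In the base, the scaffold Psmd1 rose by 1.00 ± 0.09, the scaffold Psmd2 by 0.90 ± 0.14 and the ubiquitin receptor Psmd4 by 0.81 ± 0.10 at day 2, and none passed the test between day 0 and day 6. In the lid, which holds the deubiquitinase Psmd14 (0.83 ± 0.11 at day 2), all 8 members rose, from 0.61 ± 0.10 for Psmd8 to 1.18 ± 0.23 for Psmd3. Day 2 libraries overlapped with those of day 0 for Psmd2, Psmd3 and Psmd11 in clone 66, and for Psmd7 in both clones. Psmd8 was at 0.41 ± 0.10 at day 6 against day 0 and at -0.19 ± 0.10 against day 2 (adjusted p = 0.097). The latter was a called fall with the replicate block, at -0.21 (adjusted p = 0.022), and without replicate 1 of clone 48 (adjusted p = 0.048) or of clone 66 (adjusted p = 0.0063). Psmd6 had the lowest value at day 6, with -0.23 ± 0.11 (adjusted p = 0.070). With the replicate numbers as a block, 4 genes of the base and lid passed the test between day 0 and day 6 that had not passed it before: Psmd11 at 0.40 (adjusted p = 0.00099), Psmd3 at 0.37 (adjusted p = 0.0019), Psmd2 at 0.19 (adjusted p = 0.042) and Psmd6 at -0.25 (adjusted p = 0.013).

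The assembly chaperones differed by particle. The 4 chaperones of the 20S core all rose at day 2, from 0.36 ± 0.12 for Psmg4 to 1.20 ± 0.09 for Psmg1. Psmg4 went on to 0.75 ± 0.12 at day 6 and was the one member called higher at both steps, whereas Psmg3 was back at -0.01 ± 0.09. Neither call of Psmg4 held throughout: its rise at day 2 was 0.094 by library size alone (adjusted p = 0.50) and was lost without replicate 2 of clone 48 (adjusted p = 0.056), and its rise from day 2 to day 6 was lost without replicate 1 of clone 66 (adjusted p = 0.051). Of the 3 chaperones of the 19S base, only Psmd9 rose at day 2 (0.39 ± 0.06), and all 3 were below day 0 at day 6, with -0.20 ± 0.06 for Psmd9, -0.26 ± 0.08 for Psmd10 and -0.41 ± 0.10 for Psmd5. With the block, Psmd10 also passed the test at day 2, at -0.17 (adjusted p = 0.018). Psmf1, which encodes the core inhibitor PI31, rose by 0.59 ± 0.07 at day 2 and was at 0.10 ± 0.07 at day 6. The day 6 calls of Psmd9 and Psmd10 were lost without a filter on low counts (adjusted p = 0.16 and 0.074), and that of Psmd9 also without replicate 3 of clone 48 (adjusted p = 0.066). Psmc3ip, which is no subunit, rose by 1.03 ± 0.09 and was at -0.25 ± 0.09 at day 6.

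Between day 0 and day 6, 18 of 48 members were higher and 6 lower, with a median change of 0.10, against 32.9% and 35.4% of all genes and a median of -0.03. Scaling by library size alone shifted the median of all genes to -0.27 at day 2 and -0.22 at day 6, and gave 12 higher and 12 lower members at day 6. At day 2 the same scaling left 35 higher and 7 lower. The shares of all genes given here are those of the main scaling, by the trimmed mean of M values. Psmb8, Psmb9 and Psma1 were called above day 0 at day 6 under all 15 alternatives, with log2 changes of at least 2.32, 2.43 and 1.73.

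Both clones showed the time course. At day 2, clone 48 had 39 higher and 3 lower members and clone 66 38 higher and 4 lower, against 32.3% and 33.1% of all genes in clone 48 and 29.5% and 32.1% in clone 66. The median change of the 48 was 0.85 in clone 48 and 0.68 in clone 66. The change over time differed between clones at an adjusted p under 0.05 for 1 member at day 2, against 6.84% of all genes (3.61% with a larger and 3.23% with a smaller value in clone 66). It did so for 1 at day 6, against 3.85% (2.1% and 1.75%), and for 2 between day 2 and day 6, against 6.18% (3.15% and 3.03%). All of these were Psmb8 or Psmb9. Psmb8 rose by 3.30 ± 0.26 in clone 66 and 1.69 ± 0.24 in clone 48 from day 0 to day 6, a difference of 1.61 ± 0.35 (adjusted p = 0.0047), and the difference was called under all 14 alternatives that gave it. At day 2 the difference for Psmb8 was -1.25 ± 0.48 (adjusted p = 0.13, and 0.026 with the block). Psmb9 was at -1.20 ± 0.23 in clone 66 and -0.07 ± 0.20 in clone 48 at day 2, a difference of -1.13 ± 0.31 (adjusted p = 0.020) that was lost in 4 of 6 omissions of a replicate, with adjusted p from 0.065 to 0.18. Between day 2 and day 6 the clones differed by 2.86 ± 0.45 for Psmb8 (adjusted p = 9.3e-05) and by 1.08 ± 0.29 for Psmb9 (adjusted p = 0.021), and the latter was lost in 4 of 6 omissions, with adjusted p from 0.052 to 0.10.

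Levels were then compared between the clones on each day. Clone 66 was higher than clone 48 for 11 members and lower for 3 on day 0, where 12.6% of all genes were higher and 11.1% lower. It was higher for 4 and lower for 5 on day 2, against 14.5% and 15.5%, and higher for 6 and lower for 5 on day 6, against 13.4% and 12.8%. The median difference of the 48 was 0.20, 0.01 and 0.08 on the 3 days, against 0.02, -0.01 and 0.00 for all genes. By library size alone these splits were 6 and 3, 3 and 8, and 4 and 5. The shares of all genes set beside the splits are those of the main scaling only. Psmb8 was lower in clone 66 by 1.52 ± 0.26 at day 0 and 2.77 ± 0.39 at day 2 on the log2 scale, and stood at 0.09 ± 0.22 at day 6. Psmb9 was lower on every day, at -1.003 ± 0.20, -2.13 ± 0.23 and -1.06 ± 0.18. Psmg2, a chaperone of the 20S core, was higher in clone 66 on every day, at 0.87 ± 0.15, 0.72 ± 0.15 and 0.99 ± 0.15. The alpha subunit Psma5 was also higher on every day, from 0.31 ± 0.10 to 0.47 ± 0.10. Of the 3 constitutive peptidases none passed the test on any day, with values from -0.22 ± 0.14 to 0.31 ± 0.18, though Psmb6 passed at day 0 with the block, at 0.50 (adjusted p = 0.030). At day 0 the block also added calls for Psmb3, Psmb4 and Psme2 and removed those of Psma6, Psmd1, Psmd12 and Psme4. At day 2 it added Psmd4 and Psme1 and removed Psmd10, Psmd12 and Psmg4, leaving 3 lower members, and at day 6 it added Psmd4 and removed Psmd10 and Psme4.

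RxraWT and RxraSA cells did not differ in any member at an adjusted p under 0.05. edgeR called 0 of 48 members on each day, and DESeq2 0, and with either tool 0 members had an unadjusted p under 0.05. Of all genes 0.0% were called, and 139, 162 and 125 of 16723 had an unadjusted p under 0.05 at days 0, 2 and 6. These numbers are smaller than a threshold of 0.05 would give if no gene differed, so the test was conservative. The main fit did not use the pairing of same-numbered RxraWT and RxraSA libraries, and its standard errors for genotypes may be too large. Whether this was the cause was not tested. The lack of calls does not show that the genotypes were equal. The member differences lay between -0.21 ± 0.35 (Psmd7) and 0.32 ± 0.41 (Psmb8) at day 0, between -0.17 ± 0.17 (Psme2b) and 0.13 ± 0.10 (Psme1) at day 2, and between -0.13 ± 0.16 (Psme2b) and 0.08 ± 0.11 (Psmd10) at day 6. The median standard error was 0.145 on each day. The precision was lowest for Psmb8, with a standard error of up to 0.53.

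The mean level of Psmb5 was 79.8 ± 12.2 RPKM (SD, n = 6) in RxraWT and 78.4 ± 16.4 RPKM in RxraSA cells at day 0, 169.7 ± 34.7 and 165 ± 32.5 RPKM at day 2, and 109 ± 19.2 and 107 ± 18.2 RPKM at day 6. That of Psmb10 was 27.6 ± 6.67 and 30.4 ± 4.76 RPKM at day 0, 18.3 ± 2.65 and 18.8 ± 2.08 RPKM at day 2, and 33.4 ± 9.72 and 33.9 ± 6.51 RPKM at day 6. Each difference was smaller than the SD. That SD is over both clones and so also holds the difference between clones, and a difference below it does not show equal levels. RxraSA was the higher of the same-numbered libraries in 2, 2 and 3 of 6 pairs for Psmb5 and in 4, 4 and 4 of 6 for Psmb10 at days 0, 2 and 6. Among all 10 peptidase and activator genes this number lay between 2 and 4 but for Psme1 and Psme4 at day 2, with 5 of 6, and Psmb9, Psme2 and Psme3 at day 6, with 1 of 6.

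The ratio of immunoproteasome to constitutive genes also gave no call between genotypes in 9 exact permutation tests (adjusted p from 0.84 to 0.94), with log2 differences from -0.26 to 0.23. The interaction of genotype and time was called for 0 members by edgeR and by DESeq2, with 0 at an unadjusted p under 0.05. Whether RxraSA acted differently in the 2 clones was tested as an interaction, which called 0 members, with 3, 0 and 0 at an unadjusted p under 0.05 at days 0, 2 and 6 by edgeR and by DESeq2. Its lowest value was -1.22 ± 0.41 for Psmb9 at day 0 (adjusted p = 0.98).

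**Figure D5:**
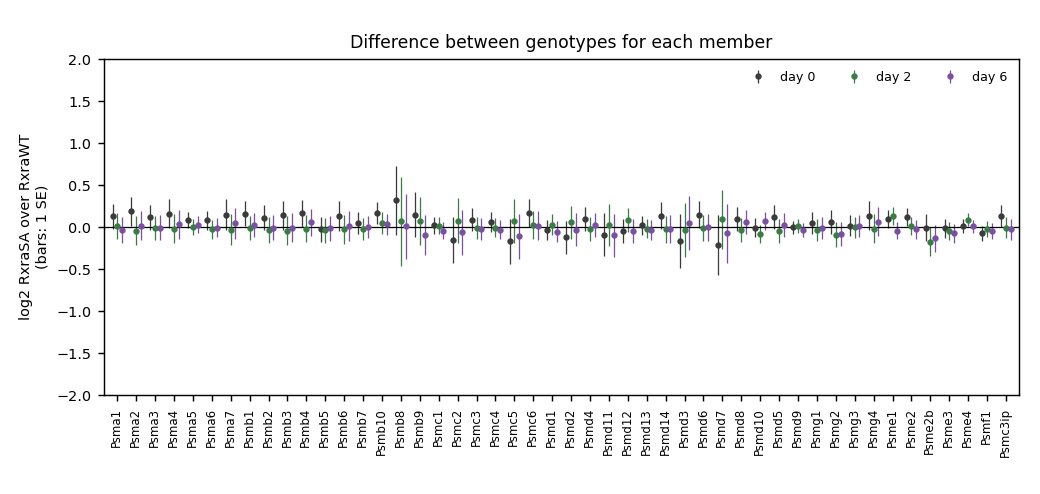
Log2 difference of RxraSA from RxraWT cells for each of the 48 tested members at days 0, 2 and 6, with 1 standard error. All points lie between -0.21 and 0.32, and the widest bars are those of Psmb8.

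Genes that work with the proteasome but carry other names were compared with the same tests. Beside them, 35.8% of all genes rose and 37.5% fell at day 2, and 30.1% fell from day 2 to day 6. Of 12 partners, 9 rose and 1 fell at day 2, with a median change of 0.65, and 11 fell from day 2 to day 6, with a median of -0.52. The deubiquitinase Uchl5 rose by 1.89 ± 0.16, the ubiquitin shuttle Ubqln1 by 1.59 ± 0.08, and the ubiquitin receptor Adrm1 by 1.04 ± 0.07. Pomp, the maturation factor of the 20S core, rose by 0.65 ± 0.09 and was at 0.13 ± 0.09 at day 6, and Akirin2, the factor for nuclear import of proteasomes, was the one that fell, by 0.24 ± 0.09. Of 6 ubiquitin and E1 genes, 4 rose and 1 fell at day 2, with a median of 0.36. Ubb rose by 0.62 ± 0.17 and Rps27a by 0.47 ± 0.10, both of which encode ubiquitin, while Uba6, an alternative ubiquitin-activating enzyme, fell by 0.74 ± 0.14.

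Among 6 regulators of proteasome genes, 4 rose at day 2 and 0 fell, with a median of 0.42 (35.8% and 37.5% of all genes). Nfe2l1 rose by 1.46 ± 0.15 at day 2 and, unlike most subunits, stood at 1.47 ± 0.15 at day 6. The protease Ddi2, which is known to release NFE2L1 from its membrane-bound form, followed the subunits, with 1.49 ± 0.09 at day 2 and 0.08 ± 0.09 at day 6, and Ngly1, which removes its sugars, was at 0.42 ± 0.08 and -0.14 ± 0.08. Nfe2l2 was at 0.05 ± 0.07 at day 2 (adjusted p = 0.52) and rose by 0.39 ± 0.07 at day 6.

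MHC class I antigen processing was the next list. Of its 9 genes, 6 fell and 2 rose at day 2, with a median of -0.45, and 6 rose and 2 fell between day 0 and day 6, with a median of 1.27. Of all genes, 37.5% fell and 35.8% rose at day 2, and 32.9% rose and 35.4% fell at day 6. The peptide transporter genes Tap1 and Tap2 were at -0.74 ± 0.21 and -0.78 ± 0.24 at day 2 and at 1.67 ± 0.20 and 1.71 ± 0.24 at day 6. The heavy chain genes H2-K1 and H2-D1 rose at both steps, to 4.56 ± 0.15 and 3.19 ± 0.13 at day 6. Of 10 interferon signalling genes, 3 rose and 7 fell at day 2, with a median of -0.58, and 6 rose and 4 fell between day 0 and day 6, with a median of 0.23. The shares of all genes to set beside these counts are those given above. Nlrc5, the transactivator of MHC class I genes, rose by 0.95 ± 0.15 at day 2 and 2.14 ± 0.16 at day 6, whereas Irf9 fell by 2.39 ± 0.13 and 1.32 ± 0.12, and Socs1, an inhibitor of the pathway, by 2.43 ± 0.15 and 1.30 ± 0.14. Ifngr1, a subunit of the interferon gamma receptor, rose by 2.79 ± 0.09 at day 2 and 0.55 ± 0.09 at day 6.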

How the data were processed

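RNA of 36 libraries was sequenced after a stranded total RNA preparation. The authors deposited raw counts per gene, made per the submitters' processing notes with STAR 2.7.0d and featureCounts 1.6.2 on build mm10 with GENCODE M21. Counting ignored the strand, and reads assigned to several genes were dropped, so that genes with shared exons or near-identical copies have uncertain counts. edgeR 3.24.3 is also named in these notes.

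The 36 deposited count columns were joined here by gene identifier (55536 genes). Genes were filtered with filterByExpr, scaled by trimmed mean of M values (TMM) and fitted with the quasi-likelihood test of edgeR 4.0.16 (legacy form) in R 4.3.3, with genotype and day as 6 groups plus clone as the covariate. Contrasts of clones used the 12 groups of clone, genotype and day. Adjustment was by Benjamini and Hochberg (the Benjamini-Hochberg method) over all 16723 genes tested, at a threshold of 0.05, and the standard error (SE) was the log2 change divided by the root of F. RPKM is the TMM-scaled count per kilobase of all annotated exons, relative to library size. Ratios used 0.5 counts as the pseudocount and were tested by exact two-sided permutation of libraries within each clone, and between genotypes by exchange within each clone. The script was tested on simulated data. DESeq2 1.42.0 was an alternative, as were other scalings, filters and omissions of libraries.

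The symbol rule for members used no measured value, but the rule and the gene lists were set with earlier results of these data known. Library values were printed for the peptidases and activators, and the members with the largest and smallest changes were named from every other list. From the lists of other genes, those with the largest changes were named, except for some that are not reported here, and Pomp, Akirin2, Ngly1, Ubb, Rps27a, Nlrc5, Tap1, Tap2 and Psmd14 were added after their values were seen.

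Replicates agreed less closely than counting noise allows (chi-square per degree of freedom from 12.0 to 188), so that none was a duplicate. The deposited description calls the replicates technical and the methods of the study call them independent, so that p-values measure only the spread between these libraries, which may be technical. Same-numbered RxraWT and RxraSA libraries of a clone and day deviated together from their group means in all 18 pairs (r from 0.176 to 0.930 over 9381 genes). The numbers thus pair the genotypes within a day. Neither the main fit nor the main permutation tests used this pairing. Between days, same-numbered libraries of 1 clone and genotype gave r from -0.325 to 0.882 (mean 0.389, 36 pairs). The numbers pair the days less consistently, although the replicate block spans all 3 days. Values with this block are given beside the named members whose call it changed.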

Additional observations from a re-analysis of the deposited data

Results flagged for a closer look

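3 of 60 groups of 6 libraries held a library far from the others by Dixon's criterion, and chance alone gives about 1 in 20. For Psmb8 in clone 66 at day 6, replicate 1 of RxraWT stood at 4.97 RPKM. For Psmb10 in clone 66 at day 0, replicate 1 of RxraWT stood at 37.7 RPKM. For Psme4 in clone 48 at day 6, replicate 2 of RxraSA stood at 27.6 RPKM.

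The change over time differed between the clones for Psmb8 and Psmb9 by the test of that difference (edgeR's quasi-likelihood test). For Psmb8 the log2 change of clone 66 exceeded that of clone 48 by 1.61 from day 0 to day 6 and by 2.86 from day 2 to day 6. For Psmb9 the difference was -1.13 from day 0 to day 2 and 1.08 from day 2 to day 6. Clone and library pool cannot be told apart, and Psmb8 had 2 to 7 counts per library in clone 66 at day 2.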

How the results depend on the processing

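Of the values that answer a comparison, 556 alternatives stayed on the same side of the threshold or within 1.5 times the count, 30 moved a count further and 5 lost a call. Of the values for the 10 peptidase and activator genes, 1222 kept direction and call, 60 lost the call, 6 gained it and 2 changed sign. The cause was not tested. With scaling by library size alone, Psme4 changed sign at day 2 (-0.077) and day 6 (-0.044), 12 members were lower at day 6 than at day 0, 6 were higher in clone 66 at day 0 and 8 were lower in clone 66 at day 2. Without a filter on low counts, 3 members were lower at day 6 than at day 0 and 6 were higher in clone 66 at day 0. With at least 1 CPM in 6 libraries, 5 were lower in clone 66 at day 0, and without the smallest library 4 were higher there. With the replicate block, 3 members were lower in clone 66 at day 2, the change over time from day 0 to day 2 differed between clones for 2 members, and the ratio of Psmb10 to Psmb7 in clone 66 from day 0 to day 6 stayed at 0.16 but lost its call (exact permutation, adjusted p = 0.099).

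Leaving out 1 replicate of a clone gave 3 to 6 lower members from day 0 to day 2 (3 without clone 66 replicate 3) and 3 to 7 from day 0 to day 6 (3 without clone 48 replicate 3). Between clones it gave 2 to 9 higher members at day 0 (2 without clone 48 replicate 1), 2 to 4 higher and 3 to 7 lower at day 2, and 3 to 5 higher and 4 to 10 lower at day 6 (10 without clone 66 replicate 1). Members whose change differed between clones numbered 0 to 1 from day 0 to day 2 and 1 to 2 from day 2 to day 6. The ratio of Psmb9 to Psmb6 in clone 48 from day 0 to day 2 ranged from -1.12 to -0.64, and that of Psmb10 to Psmb7 in clone 66 from day 0 to day 6 from 0.059 to 0.23. Genes with few counts, such as Psmb8 at day 2, limit what the depth can show between genotypes.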
